A study of Mus musculus with 10 samples.

Results

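The 10 imprinted growth genes H19, Dlk1, Meg3, Peg3, Mest, Cdkn1c, Phlda2, Slc22a18, Plagl1 and Grb10 were followed by RNA sequencing in mammary tumours of 10 mice. They were matched by gene symbol, each symbol stood for 1 of the 26063 genes in the table, and all 10 passed the count filter that left 14915 genes for testing. The tumours came from female FVB/N mice of the genotype EIC/WT (EIC, 5 tumours) or 16IC/WT (16IC, 5 tumours). Doxycycline (2 mg/ml) was given to all mice of both genotypes, and tumours were flash frozen when mice reached end point. The labels give no ages and do not spell out EIC or 16IC, the promoter that drives the alleles or the cells that carry them. The series title names HER2∆16, a splice form of the receptor HER2, together with ENPP1 and an immune cold microenvironment. The set of genes was drawn up with the genotype differences in these same tumours known, Slc22a18 first among them. The genotype differences of these 10 genes are therefore given as a description, without a test.

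Imprinted genes are read from the maternal or the paternal copy only, because methylation laid down in the egg or sperm marks one copy, and many of them set the growth of the fetus and placenta. In mouse, H19, Meg3, Cdkn1c, Phlda2 and Slc22a18 are read from the maternal copy, Grb10 from the maternal copy in most tissues, and Dlk1, Peg3, Mest and Plagl1 from the paternal copy. As a broad rule maternally expressed members restrain growth and paternally expressed members promote it, although single genes depart from this. Counts per gene do not tell the copies apart, so levels below are sums over both.

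The sequences before the starts of Slc22a18 and Phlda2 are shown because these neighbours of one imprinted cluster, compared below, have unlike starts. The 250 bases before each RefSeq start are printed 5′ to 3′ with every CG dinucleotide, the site of DNA methylation, in capitals. They are RefSeq sequence of build GRCm38.p6, from the strain C57BL/6J, at chr7:143473539-143473788 on the plus strand for Slc22a18 and chr7:143502525-143502774 on the minus strand for Phlda2. The RefSeq starts differ from the gene bounds of the count table, which give the positions and distances below. By those bounds the Phlda2 stretch lies inside the gene (143501545 to 143503150). The Slc22a18 stretch runs past the gene's first base, 143473736.
Slc22a18: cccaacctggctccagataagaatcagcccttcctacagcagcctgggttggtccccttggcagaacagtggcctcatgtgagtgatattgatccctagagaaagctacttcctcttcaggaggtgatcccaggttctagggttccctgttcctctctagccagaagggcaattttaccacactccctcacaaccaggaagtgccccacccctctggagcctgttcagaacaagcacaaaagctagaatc
Phlda2: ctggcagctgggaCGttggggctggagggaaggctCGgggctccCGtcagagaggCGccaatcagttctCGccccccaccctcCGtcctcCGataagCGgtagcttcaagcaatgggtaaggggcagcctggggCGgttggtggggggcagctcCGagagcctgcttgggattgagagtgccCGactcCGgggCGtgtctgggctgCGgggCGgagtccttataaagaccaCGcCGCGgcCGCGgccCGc
The Slc22a18 stretch holds 0 CG and the Phlda2 stretch 21. Of the 32851 starts in the RefSeq table, 92.1% hold at least 1 CG in this window, and 16.3% hold at least as many as Phlda2. For 8 of the 10 genes the table gave a start, 12 starts in all, and the others among them held between 0 (the downstream start of Meg3) and 40 CG (the upstream start of Grb10). The upstream starts of Meg3, Mest and Grb10 held 10, 7 and 40 CG. Plagl1 held 19, and Dlk1 and Peg3 held 8 each. Methylation was not measured in these tumours.

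Total counts per library ran from 14813940 to 16947400. The tissue label was checked against markers. The 8 luminal epithelial genes summed to 3919 to 6135 CPM in EIC and 4106 to 5638 CPM in 16IC, with Krt19 at 0 in some libraries. The 8 genes of basal and myoepithelial cells summed to 39.3 to 656 CPM and 21.9 to 200.4 CPM, with Krt5, Krt14, Krt17 and Cnn1 at 0 in some libraries. The 8 fibroblast genes summed to 1930 to 6958 CPM and 434 to 3816 CPM. The 8 adipocyte genes summed to 29.4 to 338 CPM and 11.9 to 379.5 CPM. The 8 endothelial genes summed to 140.2 to 236 CPM and 76.5 to 228 CPM, and the 8 leukocyte genes to 102 to 239 CPM and 76.0 to 178 CPM. The 8 skeletal muscle genes ranged most, from 2.28 to 2314 CPM in EIC and from 1.10 to 366 CPM in 16IC. In the fit, 7 of 7 tested muscle genes, 6 of 6 leukocyte genes and 7 of 8 genes each of the basal, fibroblast and adipocyte lists were lower in 16IC, as were 4 of 8 luminal and 4 of 8 endothelial genes. In bulk tumours, fewer cells of a type and less RNA per cell cannot be told apart.

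Levels below are CPM (each gene's share of a TMM-scaled library's counts, scaled to a common total), differences are log2 of 16IC over EIC from the edgeR fit over all genes with a 95% interval, and positions are on GRCm38. Slc22a18 encodes a membrane protein of the organic cation transporter family. The gene (ENSMUSG00000000154) lies on the plus strand of chromosome 7 from 143473736 to 143499334. Its level was 7.88, 2.38, 3.06, 2.06 and 2.35 CPM in EIC 1 to 5. In 16IC 1 to 5 it was 11.9, 12.3, 11.7, 14.0 and 18.0 CPM. Every 16IC tumour stood above every EIC tumour, and EIC 1 stood apart from the other 4 EIC tumours. The means were 3.55 ± 2.45 CPM in EIC and 13.6 ± 2.63 CPM in 16IC (SD, n = 5 each), a log2 difference of 1.93 (SE 0.39, interval 1.07 to 2.79), or 3.82-fold. Slc22a18 was the 1 gene of the 10 whose groups did not overlap, against 2.58% of all genes tested (1.39% with 16IC above). It was also the 1 of the 10 called by DESeq2 over all genes, against 2.04% of the genes tested (0.851% called as higher in 16IC). The quasi-likelihood test of edgeR called 0 of the 10 and 0% of all genes, with 1 of the 10 and 13.1% of all genes at an unadjusted p under 0.05. Nothing is read from these counts, since the genes were chosen on this contrast. The log2 difference ran from 1.78 without EIC 4 to 2.46 without EIC 1.

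Cdkn1c, which encodes the cyclin-dependent kinase inhibitor p57, starts 12.7 kb before Slc22a18 on the minus strand (ENSMUSG00000037664, 143458339 to 143461050). It was close to the limit of what these libraries resolve, with 2.49, 0.653, 1.08, 1.19 and 1.57 CPM in EIC 1 to 5 and 2.02, 1.96, 1.10, 4.18 and 2.93 CPM in 16IC 1 to 5. The groups overlapped, with 16IC 3 among the lower EIC tumours and EIC 1 among the 16IC tumours. The log2 difference was 0.80 (SE 0.45, interval -0.20 to 1.80). Of its exon bases 30.7% are shared with the antisense gene Gm44732, and how the counting treated strand is not known here, which makes its level uncertain.

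Phlda2 encodes a small pleckstrin homology domain protein known for restraining growth of the placenta (ENSMUSG00000010760, minus strand, 143501545 to 143503150), and its start lies 29.4 kb beyond that of Slc22a18. Its level was 7.42, 0.0594, 3.24, 16.7 and 7.11 CPM in EIC 1 to 5. In 16IC 1 to 5 it was 3.60, 17.0, 4.14, 2.67 and 16.6 CPM. High tumours (EIC 4, 16IC 2 and 16IC 5) and low tumours occurred in both genotypes, and EIC 2 held 1 count in all. The log2 difference was 0.35 with an interval from -1.70 to 2.40, and its sign turned without 16IC 2 (-0.03), without 16IC 5 and without EIC 1 and EIC 2 together (-0.04). This interval includes the value found for Slc22a18.

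**Figure D1:**
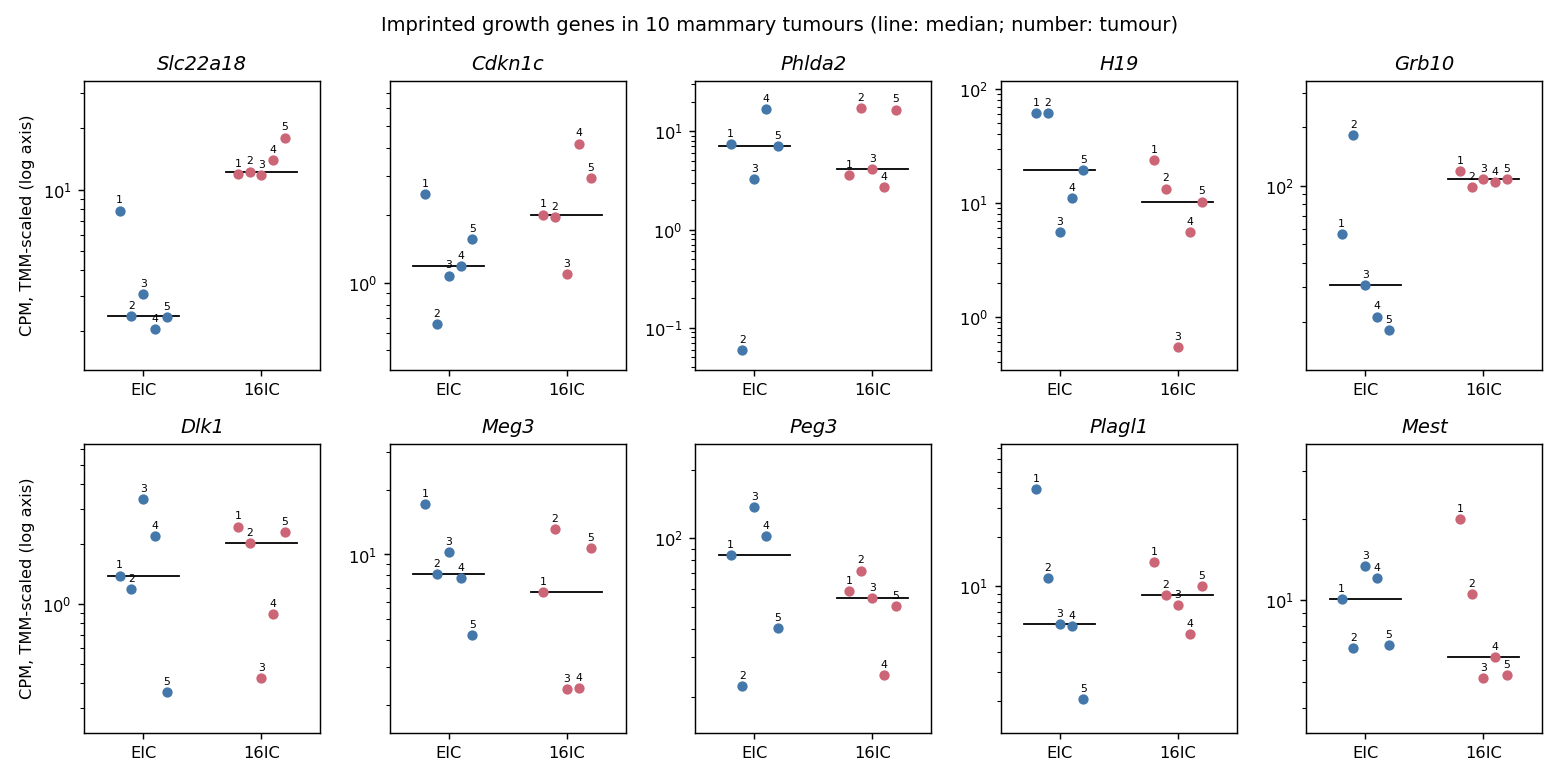
CPM of each of the 10 imprinted growth genes (log axes) in 5 EIC and 5 16IC tumours, with 1 point per tumour, its number beside it and the group median as a line. The groups are apart for Slc22a18 (2.06 to 7.88 CPM against 11.7 to 18.0 CPM) and overlap for the other 9 genes.

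Set against its neighbours per length, with the authors' deposited FPKM, Slc22a18 was 1.80 to 4.36 times as abundant as Cdkn1c in EIC and 4.01 to 12.9 times in 16IC, with medians of 3.40 and 7.37. The ranges overlapped only through 16IC 4 and EIC 2. Against Phlda2 the FPKM ratio was 0.0816 to 26.4 in EIC and 0.475 to 3.45 in 16IC, with medians of 0.623 and 1.87. The highest ratio came from EIC 2, where Phlda2 rests on 1 count, and without that tumour the EIC ratios ended at 0.701 (EIC 1). With genotype means removed, Slc22a18 and Cdkn1c had a Pearson r of 0.63 and a Spearman rho of 0.50 over the 10 tumours (exact permutation p = 0.0591 and 0.146, two-sided). Adjusted over all 45 pairs of the 10 genes these became 0.445 and 0.549, and r was 0.42 without EIC 1 and 16IC 4, the tumours farthest from the median of Cdkn1c. Slc22a18 and Phlda2 had an r of 0.21 and a rho of 0.0061 (exact permutation p = 0.613 and 1, adjusted p = 0.872 and 1), with r at 0.27 without EIC 2 and EIC 4. Cdkn1c and Phlda2 had an r of 0.43 and a rho of 0.28 (exact permutation p = 0.237 and 0.452, adjusted p = 0.7096 and 0.822), with r at 0.71 without EIC 1 and 16IC 4. None of the 3 pairs of neighbours passed.

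Further genes of the Kcnq1 domain were tested in the same fit. Kcnq1ot1, the long non-coding RNA read from the paternal copy that keeps neighbouring genes silent on it, had a mean of 7.20 ± 5.57 CPM in EIC tumours and of 3.45 ± 1.26 CPM in 16IC tumours, a log2 difference of -1.06 (SE 0.56). Its highest levels were 14.9 CPM in EIC 3 and 10.9 CPM in EIC 2. Kcnq1, the potassium channel gene in which Kcnq1ot1 lies on the opposite strand, had 12.1 ± 9.41 and 6.82 ± 2.84 CPM (-0.82, SE 0.54). Kcnq1ot1 is counted over 93092 bases within the span of Kcnq1, and how the counting treated strand is not known. The levels of Kcnq1ot1 and Kcnq1 may therefore not be separate readings. Next to Phlda2, Nap1l4, a histone chaperone gene, had 120.1 ± 7.33 and 128 ± 12.9 CPM (0.09, interval -0.16 to 0.33). Farther out, Tnfrsf23, a decoy receptor gene, had 32.4 ± 15.0 and 16.7 ± 6.21 CPM (-0.96), Osbpl5, of the oxysterol-binding family, 48.5 ± 10.9 and 57.7 ± 7.20 CPM (0.25), and the tetraspanin gene Cd81 783 ± 161 and 933 ± 102 CPM (0.25). Tssc4 had 36.4 ± 3.54 and 30.1 ± 3.18 CPM (-0.28), and Tspan32, another tetraspanin gene, about 1 CPM in each genotype (-0.01). Tspan32 turned positive without EIC 1, EIC 2, 16IC 1 or 16IC 4. By edgeR none of these 8 genes passed after adjustment over all genes (adjusted p from 0.334 for Tnfrsf23 to 0.996 for Tspan32), beside 0% of all genes. DESeq2 called none of them, beside 2.04% of all genes tested, so nothing is read from these counts. Ascl2, a transcription factor gene of the same domain, did not pass the count filter, with 131 counts in EIC 3, 42 in 16IC 3 and at most 10 in any other tumour. Whether Slc22a18 differs from the domain's other genes in its response was not tested.

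**Figure D2:**
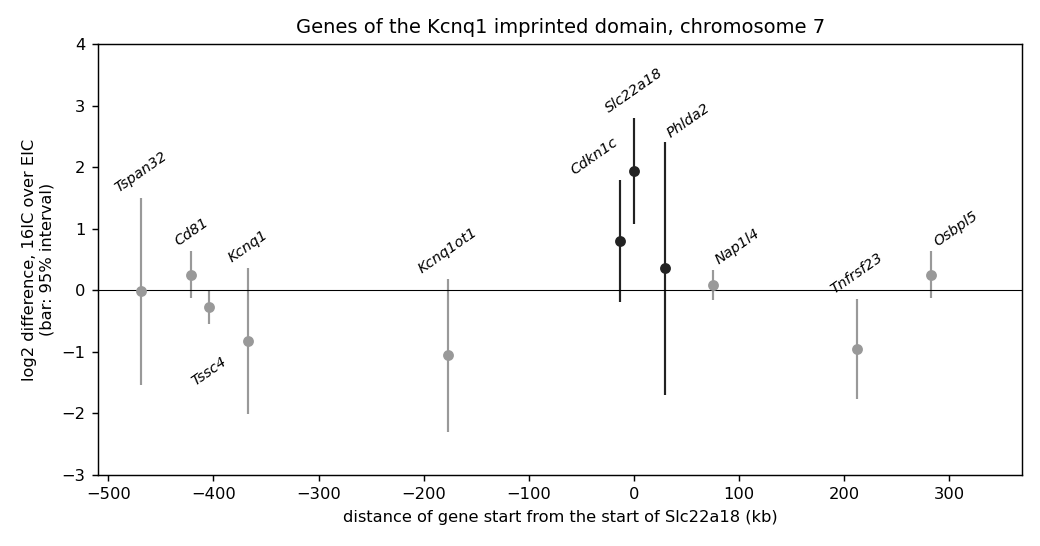
Log2 difference (16IC over EIC) with its 95% interval for the 11 tested genes of the Kcnq1 domain, placed by the distance of each start from that of Slc22a18 in kb (black, the growth genes Cdkn1c, Slc22a18 and Phlda2; grey, other imprinted genes). Slc22a18 lies at 1.93, Cdkn1c at 0.80 and Nap1l4 at 0.09.

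H19 is a non-coding RNA of the neighbouring Igf2 domain and the precursor of miR-675. Its mature forms are printed because the H19 locus is their source, with the seed (bases 2 to 8) in capitals, from RefSeq GRCm38.p6 (minus strand, chr7:142577112-142577133 for the 5p form and chr7:142577078-142577099 for the 3p form).
mmu-miR-675-5p: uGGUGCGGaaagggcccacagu
mmu-miR-675-3p: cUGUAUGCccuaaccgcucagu
The mature forms do not share a seed and were not measured here. H19 itself (ENSMUSG00000000031, minus strand of chromosome 7, 142575529 to 142578143) had 61.9, 61.7, 5.57, 11 and 19.4 CPM in EIC 1 to 5. In 16IC 1 to 5 it had 23.9, 13.4, 0.547, 5.55 and 10.3 CPM. EIC 1 and EIC 2 were above all other tumours and 16IC 3 below all, and the rest of the groups overlapped. The means were 31.9 ± 27.7 and 10.7 ± 8.83 CPM, a log2 difference of -1.57 (SE 0.86, interval -3.48 to 0.34). H19 stays abundant in adult skeletal muscle, and the muscle RNA of each tumour is given beside it. The summed muscle genes stood at 1007, 2314, 2.28, 161 and 288 CPM in EIC 1 to 5 and at 366, 22.3, 1.10, 66.1 and 8.85 CPM in 16IC 1 to 5. The 4 tumours with the most muscle RNA (EIC 2, EIC 1, 16IC 1 and EIC 5) were also the 4 of highest H19, and 16IC 3 was lowest in both. Among the others the order did not hold. 16IC 4 had more muscle RNA (66.1 CPM) than 16IC 2 (22.3 CPM) and 16IC 5 (8.85 CPM). Its H19 was lower, at 5.55 CPM against 13.4 and 10.3 CPM. Without EIC 1 and EIC 2 together, the log2 difference of H19 was -0.16. These tumours hold the highest H19 as well as the most muscle RNA, so that leaving them out lowers the EIC mean whatever the source. The part of muscle tissue in the H19 difference was not tested.

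**Figure D3:**
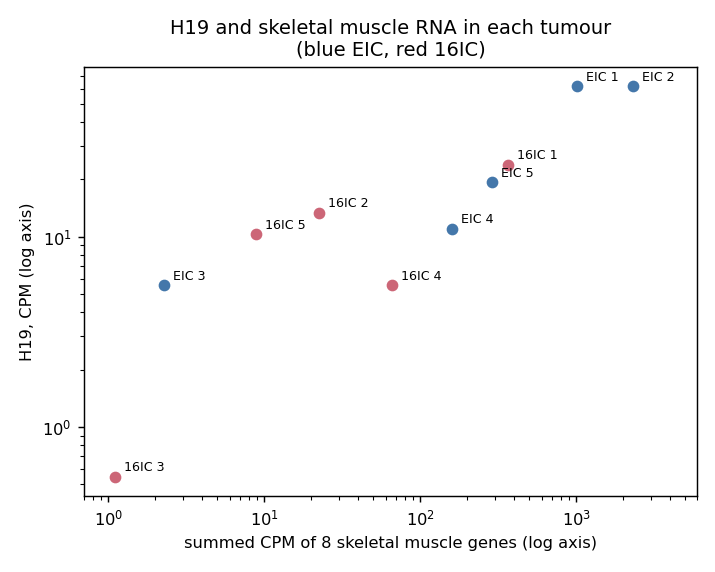
H19 level in CPM against the summed CPM of 8 skeletal muscle genes in each of the 10 tumours (log axes, blue EIC, red 16IC). EIC 1 and EIC 2 are high in both (61.9 and 61.7 CPM of H19), and 16IC 3 is lowest in both (0.547 CPM).

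Igf2, the growth factor gene that shares enhancers with H19 and is read from the paternal copy, drew few counts. It had 19 counts in EIC 1, 2 counts each in EIC 5 and 16IC 5 and 0 counts in the other 7 tumours, and it did not pass the count filter. Of the exon bases of Igf2, 62.8% are shared with the protein-coding gene Gm49394 on the same strand. How reads in shared bases were counted is not known here, so low counts do not show that Igf2 was silent. Igf2r, the maternally expressed receptor that clears IGF2, was abundant at 374 ± 152 and 257 ± 79.8 CPM (log2 difference -0.54, edgeR adjusted p = 0.4197).

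Grb10 encodes an adaptor that binds insulin and IGF1 receptors and dampens their signal (ENSMUSG00000020176, minus strand of chromosome 11, 11930508 to 12038683). Its level was 56.5, 180.9, 30.9, 21.3 and 18.1 CPM in EIC 1 to 5. In 16IC 1 to 5 it was 119, 98.1, 108, 104 and 108 CPM. The 16IC tumours lay within a 1.21-fold range. The EIC tumours were spread widely, with 4 of them below every 16IC tumour and EIC 2 above every one. The SD of log2 CPM was 1.34 in EIC and 0.10 in 16IC, and no test of this difference in spread was made. The log2 difference was 0.80 (SE 0.57, interval -0.46 to 2.07) and became 1.77 without EIC 2, the 1 EIC tumour above the 16IC range. EIC 2, the tumour with the highest Grb10, also had the 1 count of Phlda2, the lowest Peg3 and Cdkn1c and the most muscle RNA, and their part in the Grb10 level was not tested.

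Dlk1 and Meg3 are neighbours on chromosome 12, where methylation laid down in sperm marks the paternal copy of a shared control region. The pair are the paternally read Dlk1, a non-canonical NOTCH ligand known from precursor cells of fat and muscle, and the maternally read non-coding RNA Meg3. Dlk1 (ENSMUSG00000040856, plus strand, 109452823 to 109463336) had 1.39, 1.19, 3.36, 2.19 and 0.361 CPM in EIC 1 to 5 and 2.45, 2.02, 0.426, 0.891 and 2.29 CPM in 16IC 1 to 5. The log2 difference was -0.07 (interval -1.41 to 1.27), with a sign that turned without EIC 3, EIC 4, 16IC 3 or 16IC 4. Meg3 (ENSMUSG00000021268, plus strand, 109541001 to 109571726) had 17.2, 8.14, 10.3, 7.75 and 4.22 CPM in EIC and 6.70, 13.1, 2.37, 2.40 and 10.7 CPM in 16IC. Its log2 difference was -0.43 (interval -1.62 to 0.76), and -0.11 without EIC 1. The groups overlapped for both genes. EIC 5 was low for both, as the lowest EIC tumour for Meg3 (4.22 CPM), and so were 16IC 3 and 16IC 4. These 16IC tumours also had the smallest fibroblast sums, 434 and 1062 CPM against 1930 to 6958 CPM in the other 8. EIC 5, lowest of all for Dlk1, had a fibroblast sum of 3062 CPM. The part of stromal RNA was not tested. Rian, a non-coding RNA beyond Meg3 on the maternal copy, had 8.35 ± 3.71 and 6.55 ± 4.74 CPM (-0.35), and Dio3, the paternally read enzyme that inactivates thyroid hormone, 0.799 ± 0.304 and 1.34 ± 1.15 CPM (0.74). By edgeR neither passed (adjusted p = 0.785 and 0.687). Rtl1 and Mirg did not pass the count filter.

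Of the 3 remaining paternally expressed genes, Peg3, a zinc finger gene linked to maternal behaviour and growth (ENSMUSG00000002265, minus strand of chromosome 7, 6703892 to 6730431), had the highest CPM. It had 84.0, 22.3, 136.8, 102 and 40.4 CPM in EIC 1 to 5 and 58.6, 72.0, 54.7, 25.1 and 50.4 CPM in 16IC 1 to 5. The groups overlapped, and the log2 difference was -0.56 (interval -1.56 to 0.43). Plagl1, a zinc finger gene that can halt the cell cycle (ENSMUSG00000019817, plus strand of chromosome 10, 13060504 to 13131694), had 38.9, 11.3, 5.87, 5.75 and 2.05 CPM in EIC and 14.0, 8.80, 7.72, 5.14 and 10.1 CPM in 16IC. EIC 1 alone lay far above the rest. The log2 difference of Plagl1 was -0.48 (interval -1.95 to 0.99), and it turned to 0.55 without EIC 1. Mest, a gene of the alpha/beta hydrolase family known from growing fat and mesoderm (ENSMUSG00000051855, plus strand of chromosome 6, 30723547 to 30748465), had 10.1, 6.65, 13.4, 12.1 and 6.81 CPM in EIC and 19.96, 10.5, 5.17, 6.17 and 5.28 CPM in 16IC. Its log2 difference was -0.06 (interval -0.97 to 0.85), its sign turned in 5 of the 10 fits with 1 tumour left out (reaching 0.10 without 16IC 3), and 16IC 1 held the highest level. Copg2 on the opposite strand shares 23.1% of the exon bases of Mest, so its level is uncertain.

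Compared per length, as the authors' deposited FPKM over all 10 tumours, Grb10 was highest at 9.01 ± 5.52 FPKM, followed by H19 (8.47 ± 8.93), Phlda2 (6.79 ± 5.60), Slc22a18 (4.89 ± 3.33) and Peg3 (4.71 ± 2.58). Mest (2.37 ± 1.16), Plagl1 (1.37 ± 1.33), Cdkn1c (0.914 ± 0.5097), Meg3 (0.446 ± 0.258) and Dlk1 (0.284 ± 0.166 FPKM, SD, n = 10) came after. Each gap between neighbours in this order was smaller than the larger SD of the pair, so neighbours in the order are not separated. The order differed by genotype. In EIC H19 led at 12.7 ± 11.1 FPKM and Slc22a18 came sixth at 2.04 ± 1.45 FPKM, and in 16IC Grb10 led at 11.4 ± 0.926 FPKM with Slc22a18 second at 7.74 ± 1.58 FPKM.

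The 10 genes varied more between tumours of a genotype than a typical gene. Their median SD of log2 CPM within genotype was 0.95, from 0.57 for Slc22a18 to 2.00 for Phlda2, against 0.43 at the median of all genes tested. The biological coefficient of variation, edgeR's measure of spread beyond counting error, was 60.7% at their median and 33.6% over all genes. Low counts raise this measure, and beside the trend for genes of like abundance it was 98.8% against 54.3% for Phlda2, 88.9% against 41.4% for H19 and 61.5% against 34.8% for Grb10. For Slc22a18 it was 44.4% against 53.2%, for Cdkn1c 49.8% against 64.5% and for Mest 48.0% against 51.7%, all under the trend. Dlk1 (65.5% against 64.7%), Meg3 (59.97% against 53.6%), Peg3 (50.2% against 36.0%) and Plagl1 (72.0% against 50.0%) were above it. The 15 other paternally expressed imprinted genes had a median of 55.8% and a median SD of log2 CPM of 0.84, and the 22 maternally expressed ones 29.2% and 0.39.

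Over the 45 pairs, r with genotype means removed was positive for 37 and negative for 8, with a median of 0.27. The exact permutation test within genotype (14400 arrangements, smallest possible p 6.94e-05) passed 0 pairs after Benjamini-Hochberg adjustment for either r or rho, with 4 pairs at an unadjusted p under 0.05 for each. The smallest p for r belonged to Meg3 with Plagl1, at r = 0.64 and rho = 0.66 (exact permutation p = 0.0162 and 0.0299, adjusted p = 0.445 and 0.336), with r at 0.75 without 16IC 3 and 16IC 4. The neighbours Dlk1 and Meg3 had an r of 0.74 and a rho of 0.59 (exact permutation p = 0.0229 and 0.0954, adjusted p = 0.445 and 0.3901), with r at 0.48 without EIC 5 and 16IC 3. By rho the smallest p was that of Plagl1 with Grb10, at rho = 0.87 and r = 0.58 (exact permutation p = 0.00722 and 0.277, adjusted p = 0.325 and 0.743), with r at 0.63 without EIC 1 and EIC 5. The pair Phlda2 and Grb10 had the most negative r, -0.80, with a rho of -0.47 (exact permutation p = 0.0608 and 0.227, adjusted p = 0.445 and 0.682). It rests on EIC 2 and EIC 4, without which r was -0.04. The pairs share libraries and their composition.

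**Figure D4:**
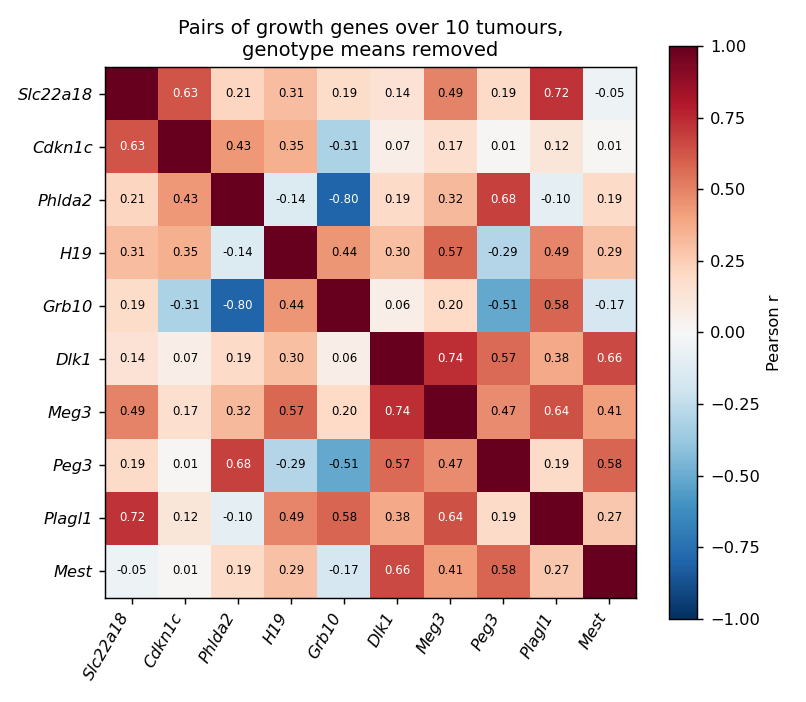
Pearson r for each pair of the 10 growth genes over 10 tumours, computed on log2 CPM with the genotype means removed (red positive, blue negative). Dlk1 with Meg3 reaches 0.74 and Phlda2 with Grb10 -0.80, and no pair passed after adjustment.

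Other imprinted genes were read from the same fit, 56 of them from lists of genes known to be imprinted in mouse, some only in certain tissues. Of these, 52 were matched and 37 passed the count filter, and edgeR called 0 of the 37 (8 at an unadjusted p under 0.05, and 13.1% of all genes), while DESeq2 called 1 of the 37, beside 2.04% of all genes. Their median log2 difference was -0.17, beside -0.02 for all genes and -0.06 for the 10 growth genes. Of 15 paternally expressed genes 7 were higher and 8 lower in the fit (median -0.54), and of 22 maternally expressed genes 8 were higher and 14 lower (median -0.09). None of the 37 had groups that did not overlap, beside 2.58% of all genes. The largest values lay in 2 places. On chromosome 6 around Peg10, Ppp1r9a, which encodes the actin-binding protein neurabin, had 19.8, 0.238, 4.67, 13.4 and 21.3 CPM in EIC 1 to 5 and 0.432, 1.25, 0, 0.206 and 2.23 CPM in 16IC 1 to 5. Only EIC 2 lay among the 16IC tumours. Its log2 difference was -3.83 (SE 1.16), with an adjusted p of 0.288 by edgeR and 0.0121 by DESeq2, and the DESeq2 p was above 0.05 when EIC 1 (0.0679), EIC 5 (0.0645), 16IC 1 (0.0523) or 16IC 4 (0.0583) was left out. In the same cluster Peg10, a retrotransposon-derived gene needed in the placenta, had 9.91 CPM in EIC 1, 33.7 CPM in EIC 5 and at most 1.95 CPM in every other tumour (-3.28, edgeR adjusted p = 0.356). Tfpi2, a protease inhibitor gene, had 13.7 ± 10.4 and 3.27 ± 2.17 CPM (-2.06, edgeR adjusted p = 0.304). Sgce, also tested there, had a log2 difference of -2.04. The differences were smaller for Casd1 (-0.35), Pon3 (-0.26) and Pon2 (-0.17), so the cluster was not evenly lower.

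Sfmbt2, a Polycomb group gene on chromosome 2, had 46.4 CPM in EIC 5, 0 to 10.1 CPM in the other EIC tumours and at most 1.17 CPM in any 16IC tumour. Its log2 difference was -4.66 (SE 1.41), with an edgeR adjusted p of 0.288. On the other side the largest values were modest. Beside Dio3, Mcts2 had 3.44 ± 1.17 and 4.98 ± 1.14 CPM (0.53, edgeR adjusted p = 0.468), and H13, which surrounds it, 190.2 ± 31.2 and 240.0 ± 44.9 CPM (0.34, edgeR adjusted p = 0.416). The log2 difference of Slc22a18, 1.93, was above the highest of the 37, 0.74, as a description.

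**Figure D5:**
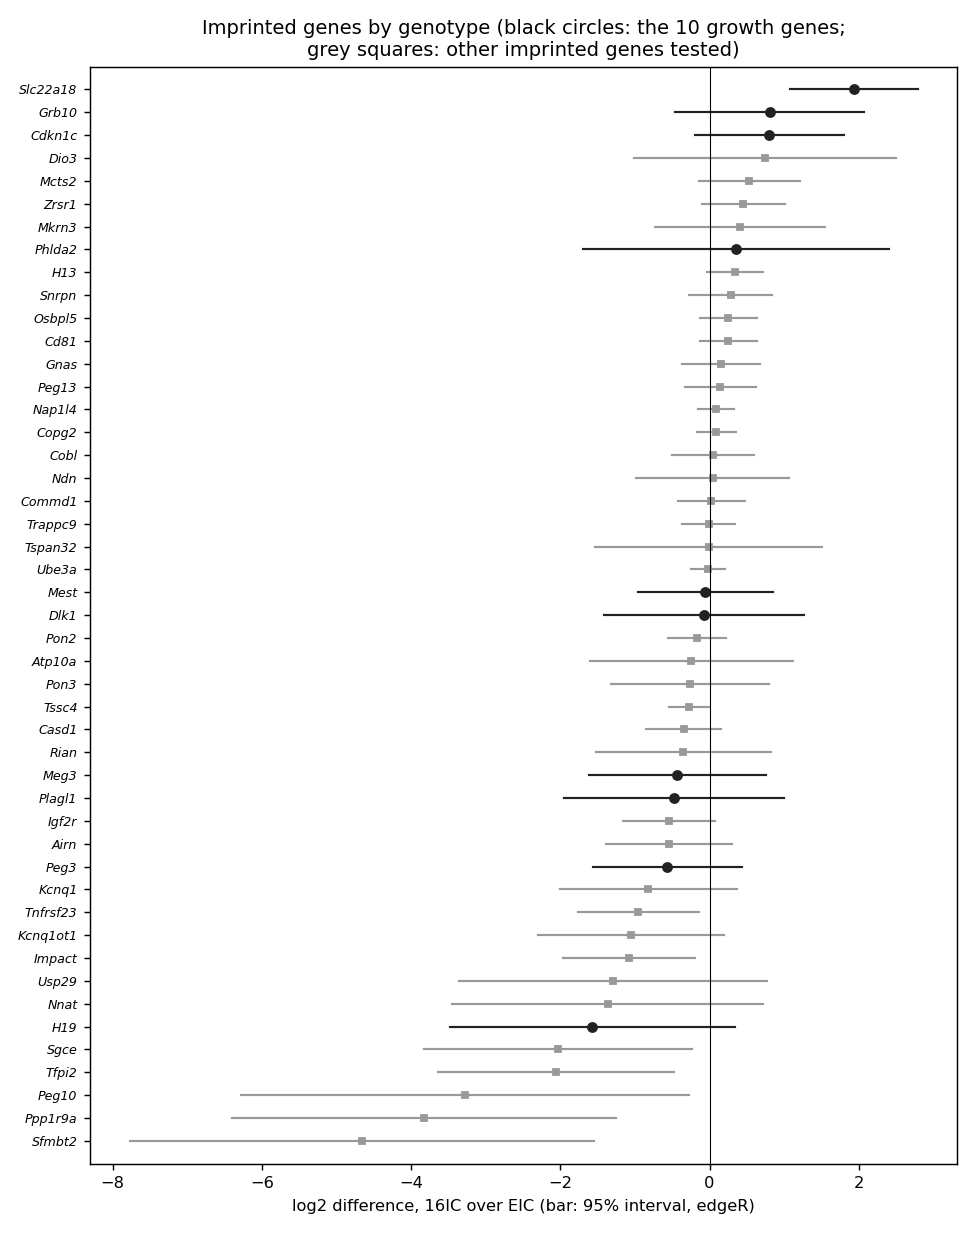
Log2 difference (16IC over EIC) with its 95% interval from edgeR for the 10 growth genes (black circles) and the 37 other imprinted genes tested (grey squares), in order of value. Slc22a18 lies highest at 1.93, and Ppp1r9a (-3.83) and Sfmbt2 (-4.66) lie lowest.

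Genes that keep or erase imprints were also read from the same fit. Of 18 listed, 17 were matched and 15 passed the filter. Dnmt3l and Dppa3 did not pass the count filter. Of the 15, 3 were higher and 12 lower in the fit, with a median log2 difference of -0.30. EdgeR called 0, beside 0% of all genes, and DESeq2 called 0, beside 2.04% of all genes tested. At an unadjusted p under 0.05 stood 2 of the 15, beside 13.1% of all genes. Dnmt1, the maintenance DNA methyltransferase, had 153 ± 22.9 and 121 ± 28.6 CPM, and Trim28, the co-repressor that KRAB zinc fingers bring to imprinted regions, 294 ± 29.1 and 229 ± 32.9 CPM (-0.36, edgeR adjusted p = 0.334). Zfp57, which recognises methylated imprinted regions, was low at 1.16 ± 0.506 and 0.664 ± 0.418 CPM (-0.80, edgeR adjusted p = 0.499), and Zfp568 had 27.3 ± 6.38 and 18.2 ± 1.84 CPM (-0.59, edgeR adjusted p = 0.2895). Smchd1, a chromosomal protein named after its values were seen, was the 1 gene of this list without overlap (6.67% of its 15 genes, 2.58% of all), at 58.4 to 69.6 CPM in EIC and 39.4 to 58.1 CPM in 16IC (-0.30, edgeR adjusted p = 0.3898). Arid4a (0.11) and Tet1 (0.26) had the highest values of the list, and Tet1 turned negative without EIC 5 or 16IC 3.

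For each of the 10 genes, the genes with the most similar levels over the 10 tumours were listed by Pearson r of log2 CPM, among about 13265 genes of mean log2 CPM of at least 1, as a description. The highest r lay between 0.89 and 0.97 for each of the 10. How high r rises by chance among so many genes over 10 tumours was not tested, so nothing is read from the names. H19 was most like Flnc (0.95), Ern1 (0.95) and Unc45b (0.92). Slc22a18 was most like Apobec3 (0.93), Tspan8 (0.92) and Casz1 (0.92), and its own genotype difference enters these values. Grb10 was most like 4632404H12Rik (0.97), Fn3krp (0.96) and Barx2 (0.95), and Phlda2 was most like Kitl (0.96), Irx2 (0.95) and Fermt1 (0.95). For Cdkn1c they were Plxdc1 (0.96), Lyrm2 (0.91) and Poldip2 (0.90), for Meg3 Dnm1 (0.96), Slx4 (0.94) and Slc2a4rg-ps (0.94), and for Dlk1 Nsd1 (0.93), Gm12454 (0.91) and Rab38 (0.90). Peg3 was nearest to Mllt3 (0.93), Lamb1 (0.92) and Cdh24 (0.91), Mest to Nupl2 (0.93), Cyp51 (0.88) and Macrod2 (0.88), and Plagl1 to Jak3 (0.89), Rpl7a (0.87) and B3galnt2 (0.84). No gene of the 10 was among the 3 most like another.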

How the data were processed

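RNA was measured in mammary tumours of 10 mice. Qiagen RNeasy Mini and NEBNext Ultra II kits served for RNA and libraries, per the labels' protocols. The build GRCm38 (mm10) and the tools STAR, Trimmomatic, HTSeq, limma and edgeR are named, without versions, per the submitters' processing notes. Neither annotation release nor strand setting is given there. The authors deposited raw counts, on which every test here was run, and FPKM values, used to compare genes per length. The deposited normalized counts are a signal equal to the counts divided by 1 factor per library. Fold changes on the log2 scale and p-values in the authors' deposited table were read but not used for results.

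Counts were scaled by TMM, filtered with filterByExpr (minimum count 10) and tested with edgeR 4.0.16 (quasi-likelihood, robust) in R 4.3.3, with Benjamini-Hochberg adjustment over all 14915 genes and a threshold of 0.05. DESeq2 1.42.0 was an alternative. Log2 CPM used a prior count of 2. Pairs were tested by exact permutation within genotype. The edgeR and pair scripts were tested on simulated data. Overlaps between genes came from GENCODE mouse release M21. Where nothing in the labels gives a batch or a pairing, none was fitted, and the tumours come from separately named animals. The most similar libraries within a genotype, 16IC 2 and 16IC 5, had a chi-square of 24.2 per degree of freedom, and the next pair 56.25. These values are far beyond counting error, so no library was simply sequenced again. Separate pieces of the same tumour would also differ beyond counting error, so this check cannot tell whether any were used.

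The 10 genes and all gene lists were chosen with earlier results of these data known. Named genes were the 10, any list gene called by edgeR or DESeq2, tested genes of the Kcnq1, H19 to Igf2 and Dlk1 to Meg3 clusters, the 2 largest values of each list in each direction, and the 3 genes most like each of the 10. Genes named beyond this rule are Igf2r, Dnmt1, Trim28, Smchd1, Sgce, Casd1, Pon2 and Pon3, and those said not to pass the count filter.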

Additional observations from a re-analysis of the deposited data

Results flagged for a closer look

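Among the 37 genes and marker sums looked at in each genotype, 74 groups of 5 tumours, 5 groups held a tumour whose gap to the nearest other, as a share of the whole range, was beyond Dixon's critical value. Chance gives about 1 in 20 for normally distributed values. The gaps were taken on CPM and not on a log scale, so this rate need not hold here. In all 5 groups the tumour that stood apart was the highest. Of the 20 groups of the 10 growth genes, 3 were among them, all in EIC. Slc22a18 was 7.88 CPM in EIC 1 and 2.06 to 3.06 CPM in the other EIC tumours (gap 0.829 of the range), and that 1 tumour is still below every 16IC tumour. Plagl1 was 38.9 CPM in EIC 1 and 2.05 to 11.3 CPM in the others (0.749). Grb10 was 180.9 CPM in EIC 2 and 18.1 to 56.5 CPM in the others (0.764). Outside the 10 genes, Sfmbt2 was 46.4 CPM in EIC 5 and 0 to 10.1 CPM in the others, and the sum of the skeletal muscle genes was 366 CPM in 16IC 1, with the 4 others of its genotype between 1.10 and 66.1 CPM.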

How the results depend on the processing

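No paired analysis was made, because the labels give no pairing and the tumours come from separately named animals. The labels give no replicate number, and the tumour numbers 1 to 5 within each genotype were assigned here. The sign of the difference was the same under all alternatives run for Slc22a18, H19, Meg3, Peg3, Cdkn1c and Grb10, and under each scaling for all 10 genes. With total count scaling Slc22a18 was at 1.88 and H19 at -1.65. DESeq2 called 356 genes of all in the table, of which 305 were among the 14915 genes tested by edgeR (2.04%). It called 1 of the 10 growth genes and 1 other imprinted gene, where edgeR called 0 in each case and 0 of all genes tested. With 1 tumour left out, edgeR called 0 to 2 genes of all, 0 to 1 of the 10 (Slc22a18 without EIC 1) and 0 other imprinted genes, and 0 of the 45 pairs passed. DESeq2, with 1 tumour left out, called 1 to 2 of the 10 (2 without EIC 2) and 0 to 5 other imprinted genes (5 without EIC 2, 0 without EIC 1, EIC 5, 16IC 1 or 16IC 4). The share of all genes that DESeq2 called in these runs was not recorded, so nothing is read from these counts. Leaving out EIC 1 and EIC 2 together, and the leave-one-out runs of DESeq2, were chosen after seeing the data. The first gave 5 calls by edgeR over all genes, 2 of them among the 10, a Grb10 value of 2.20 and a Plagl1 value of 1.01. EIC 2 and EIC 1 hold the highest Grb10 of EIC, so that leaving them out raises this difference by construction, and nothing is read from calls among the 10. For the other values the cause was not tested. With 5 tumours a genotype the intervals span more than 1 log2 unit for each of the 10 genes, and Cdkn1c and Dlk1 also rest on few counts.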
